A study of Homo sapiens with 7 samples.

Results

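The subject is a pair of genomic domains in which the early or late replication of the DNA differs between 2 human cell lines. One lies on chromosome 5 around DNAH5 and TRIO, the other on chromosome 2 around SH3RF3 and SEPT10, with EDAR and RANBP2 at its left side. The members were every array probe carrying one of these 6 gene names, and the 250-kb windows of chr5:12500000-15500000 and chr2:108500000-112000000 (hg19). The 6 genes, of 27941 gene names on the arrays, had 104 of 169519 measured probes on the larger array design and 29 of 54801 on the smaller one. The intervals held 26 windows, of which 19 had at least 3 probes on every array (8 on chromosome 5 and 11 on chromosome 2), out of 8912 such windows in the genome. The domains were chosen by their K562 minus U2OS difference in these same 7 arrays, as the windows with the largest shift to later replication in K562. Those differences are therefore given as a description, without a test.

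The 7 samples were each hybridised to an array of their own, 3 of K562 and 4 of U2OS. K562 is a suspension line from a chronic myeloid leukaemia, and U2OS is an adherent line from an osteosarcoma. All cells received 50 µM BrdU, a thymidine analogue built into new DNA, for 2 h, and 80000 fixed cells were sorted by DNA content into cells early and cells late in S phase. BrdU-labelled DNA was precipitated with an antibody and amplified, and the early fraction was labelled with Cy3 and the late fraction with Cy5 on all 7 arrays, with no dye swap. The K562 arrays are labelled new sorting, old sorting and 44k, 1 array each, and the labels do not say how the cells of the last were sorted. The U2OS arrays are labelled manual (2 arrays) or automated (2 arrays), without naming the step handled in that way. The labels do not state that arrays came from separate cultures, so the spread between them may be partly technical.

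Replication timing is the order in which parts of the genome are copied during S phase. Large domains are copied together from clusters of origins. Early domains tend to be gene-rich and open, late domains tend to be gene-poor and compact, and some switch between cell types. Each value here is log2(early/late), the ratio of the early to the late signal of a probe or the mean over probes, with the median probe of each array set to 0. A positive value is earlier and a negative value is later than that median. Each value averages many sorted cells, so a domain copied early in some cells and late in others cannot be told apart from one copied at an intermediate time.

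Each of the 6 genes was read by oligonucleotides of the array. The following probes are shown because each is printed on both designs, so that the same sequence was read in all 7 samples. Of the probes of its gene present on both designs it lies nearest the middle of the gene's probes. Sequences are written here in lower case, and coordinates are hg19.
DNAH5, chr5:13830687-13830744: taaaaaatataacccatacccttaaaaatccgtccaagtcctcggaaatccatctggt
TRIO, chr5:14324194-14324253: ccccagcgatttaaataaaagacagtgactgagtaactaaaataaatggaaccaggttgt
SH3RF3, chr2:110029307-110029366: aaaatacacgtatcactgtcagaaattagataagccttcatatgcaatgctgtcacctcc
SEPT10, chr2:110301991-110302050: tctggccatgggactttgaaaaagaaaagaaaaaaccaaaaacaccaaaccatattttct
EDAR, chr2:109549484-109549543: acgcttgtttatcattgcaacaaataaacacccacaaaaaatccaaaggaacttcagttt
RANBP2, chr2:109380643-109380702: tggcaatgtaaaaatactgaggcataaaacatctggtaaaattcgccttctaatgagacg

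The probes differ little in base composition. Mean GC content was 36.6% ± 1.7 (SD over 99 probes) inside the chromosome 5 domain and 36.9% ± 3.0 (SD over 51 probes) inside the chromosome 2 domain, against 36.5% ± 2.6 over all 169544 probes of the larger design. Next to the domains it was between 35.8% and 36.8%. The DNAH5, TRIO, SH3RF3 and EDAR probes lie between the first and the last probe of their gene. The SEPT10 and RANBP2 probes are the leftmost of their genes, each being the only probe of its gene on both designs. Whether each probe is exonic or intronic was not determined here.

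At 4 of the 6 genes the single probe read lower on every K562 array than on every U2OS array. The DNAH5 probe read -2.62 on the new sorting array, -1.38 on the old sorting array and -1.88 on the 44k array of K562. In U2OS it read 0.44 and 1.03 (manual) and 1.15 and 0.66 (automated). The TRIO probe read -2.01, -1.43 and -1.68 in K562, and the SH3RF3 probe read -1.60, -0.98 and -1.20. All 4 U2OS arrays were above 0 at both of these probes, between 0.53 and 1.79. At the SEPT10 probe the K562 arrays read -0.48, -1.02 and -0.0014, below the U2OS range of 0.83 to 1.25. It was the least late SEPT10 probe on each of the 3 K562 arrays. The EDAR and RANBP2 probes were above 0 on all 7 arrays.

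Signal strength differed between arrays. Between 44.8% and 93.8% of probes were well above background in the early channel and between 8.83% and 96.6% in the late channel, the lowest being the late channel of the 44k array. The SD of window values, which sets the scale of each profile, was 1.26 on the new sorting, 0.61 on the old sorting and 0.92 on the 44k array. It was 0.55 and 0.54 for manual U2OS and 1.02 and 0.96 for automated U2OS. DPPA2, the late control of the protocol, was below 0 on all 7 arrays. BMP1, the early control, was above 0 on 6 arrays, but its only probe on the 44k array read -2.001. Total signal (both channels) at CDKN2A, which is deleted in K562, was between -1.68 and -0.69 log2 in K562 and between -0.64 and -0.25 in U2OS, and these ranges did not overlap.

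On chromosome 5, U2OS copied a stretch of 1.43 Mb early, inside a region whose measured windows were late on average in both lines, whereas K562 copied that stretch late on all 3 arrays. DNAH5 encodes an outer-arm heavy chain of the axonemal dynein that drives the beating of cilia, and TRIO encodes a large signalling protein that acts on the cytoskeleton. Both lie inside this stretch. In the core window, chr5:13750001-14000000, the K562 arrays read -2.40 (new sorting), -1.08 (old sorting) and -1.91 (44k). The U2OS arrays read 0.56 and 0.94 (manual) and 1.39 and 1.03 (automated). The groups did not overlap, and the K562 minus U2OS difference was -2.77, which put this window at rank 1 of 8912 for later replication in K562. Within its own array, the window fell at percentiles 1.44 to 7.19 of all windows in K562 and at percentiles 82.1 to 99.0 in U2OS. From the deposited log ratio in place of the re-computed one, it read -3.29, -2.14 and -2.58 in K562 and 1.07 to 1.71 in U2OS, and the difference grew to -4.09.

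DNAH5 (chr5:13690522-13944218, first to last probe) averaged -2.52 on the new sorting, -0.96 on the old sorting and -1.91 on the 44k array over 23, 23 and 6 probes. In U2OS it averaged 0.22 and 0.73 (manual) and 1.13 and 0.78 (automated). The K562 mean was -1.80 ± 0.79 (SD, n = 3) and the U2OS mean was 0.71 ± 0.37 (SD, n = 4), a difference of -2.51. In order from late to early the arrays ran new sorting, 44k, old sorting, manual 1, manual 2, automated 2 and automated 1. Manual 2 and automated 2 differed by less than the U2OS spread. On the new sorting and 44k arrays every DNAH5 probe was below 0, and on the old sorting array 22 of 23 were. The U2OS arrays had 8, 0, 1 and 1 of 23 probes below 0, in the order manual 1, manual 2, automated 1 and automated 2.

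In U2OS the left end of DNAH5 lay on the slope into the early stretch. Over the 7 leftmost probes (chr5:13690522-13745671) the manual arrays averaged -0.28 and 0.40 and the automated arrays 0.48 and 0.25. Over the 8 rightmost probes (chr5:13847044-13944218) the same arrays averaged 0.57, 0.97, 1.41 and 1.09. All 4 U2OS arrays were thus earlier at the right end. In K562 the left and right ends read -2.58 and -2.25 on the new sorting array and -0.77 and -0.996 on the old sorting array, which is no common direction. RefSeq places DNAH5 on the minus strand, so its 5′ end is the one deeper inside the early stretch of U2OS.

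TRIO (chr5:14153561-14509112) averaged -1.47 on the new sorting, -1.24 on the old sorting and -1.02 on the 44k array over 32, 32 and 9 probes. On the U2OS arrays it averaged 0.83 and 0.89 (manual) and 1.34 and 1.22 (automated). Every TRIO probe was below 0 on all 3 K562 arrays and above 0 on all 4 U2OS arrays. The means were -1.25 ± 0.23 (SD, n = 3) and 1.07 ± 0.25 (SD, n = 4), differing by -2.32. Unlike DNAH5, TRIO had a flat profile in U2OS, with its left, middle and right parts between 0.77 and 0.89 on manual 1 and between 1.25 and 1.47 on automated 1. Among the K562 arrays, new sorting and 44k read TRIO as less late than DNAH5, while old sorting read it as later.

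**Figure D1:**
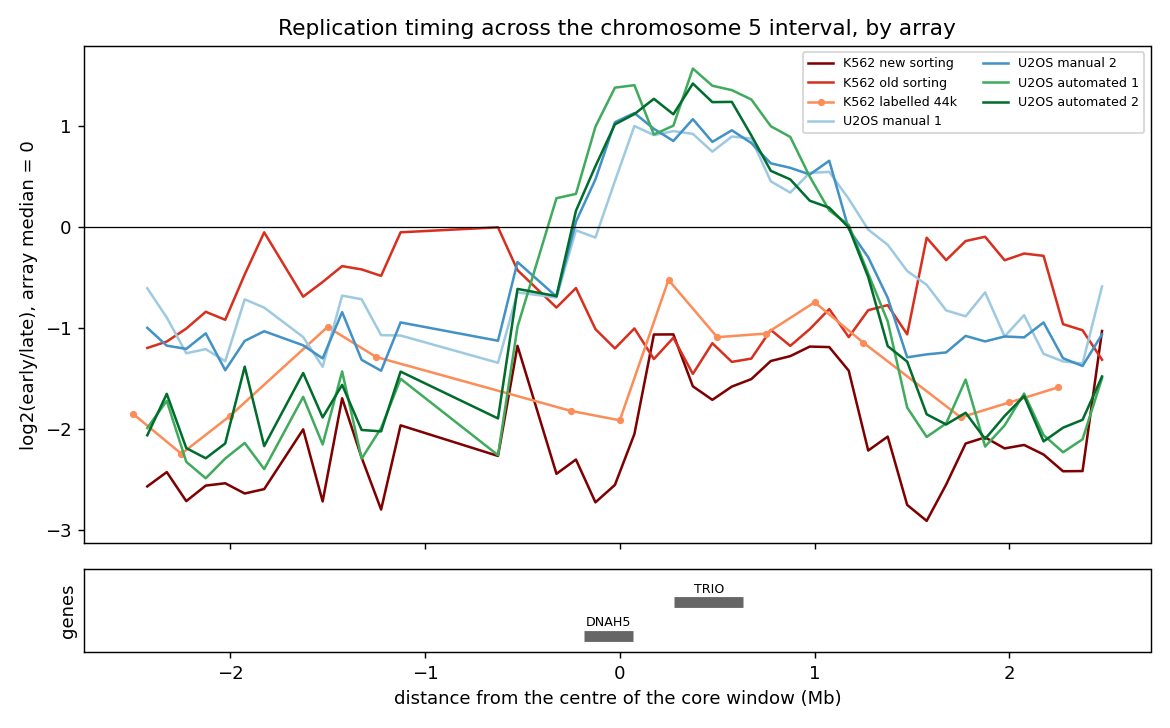
The lines give log2(early/late) on each array against distance from the centre of the chromosome 5 core window in Mb, in 100-kb windows of at least 2 probes (250-kb windows with points for the array labelled 44k), with the extent of the gene probes drawn under them. The 4 U2OS lines rise above 0 over DNAH5 and TRIO and fall below 0 on both sides, while the 3 K562 lines stay at or below 0 across the plotted range.

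The borders of the early stretch in U2OS were read from the points where each array's profile crossed 0. Profiles were in 100-kb windows of at least 2 probes, or in 250-kb windows for the 44k array. The left crossing lay at 13.77 and 13.64 Mb on manual 1 and 2 and at 13.51 and 13.63 Mb on automated 1 and 2, within or just left of DNAH5. The right crossing lay at 15.14 and 15.05 Mb on manual 1 and 2 and at 15.05 Mb on both automated arrays. The mean positions were 13.64 ± 0.11 Mb and 15.07 ± 0.05 Mb, for a width of 1.43 ± 0.08 Mb (SD, n = 4). In K562 no array crossed 0 within 3 Mb to the right of the core, and to the left all 3 crossed at 10.92 ± 0.03 Mb (SD, n = 3). K562 therefore had no crossing at the positions where U2OS changed sign. A single 250-kb window of the old sorting array, chr5:12750001-13000000, read above 0, at 0.16. In 250-kb windows that array thus changed sign between this window and chr5:13250001-13500000 (-0.12). Its left crossing, and the small spread of the K562 crossings, therefore depend on the window size.

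A second measure took the border as the point where the K562 minus U2OS profile fell to 50% of its core value. By it the chromosome 5 domain ran from 13.42 to 14.89 Mb, 1.47 Mb wide. With each K562 array set in turn against the U2OS mean the left border fell at 13.10, 13.65 and 13.40 Mb (new sorting, old sorting and 44k) and the right border at 14.85, 15.01 and 14.77 Mb. The right border varied by 0.12 Mb (SD, n = 3) and the left by 0.28 Mb. The left border has the larger spread. Between chr5:12500001-12750000 and chr5:13500001-13750000 no window had enough probes on every array. The left borders at 13.42, 13.10 and 13.40 Mb were interpolated across that space, so they and the 1.47 Mb width are approximate. It includes a stretch without probes from 12800211 to 13227700, 427 kb long, in which the new sorting border falls. With at least 5 probes required per window, the width rose to 2.32 Mb.

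The windows next to the domain showed where the contrast between the lines ended. The outermost window of the interval measured on all arrays (chr5:12500001-12750000) differed by 0.15, and the first window past its right end (chr5:15500001-15750000) differed by -0.03. Inside, 7 of 8 measured windows had K562 and U2OS arrays that did not overlap, all 7 of them later in K562, against 30.1% of windows in the genome in either direction and 18.1% later in K562. The choice of the domains fixes this count in part. The same 7 windows passed the genome-wide limma threshold of an adjusted p of 0.05 and a difference of at least 1, which 13.1% of windows passed in either direction and 8.81% as later in K562; nothing is read from this, since the contrast chose the domains. Their differences ran from -1.04 at chr5:15000001-15250000 to -2.77 in the core.

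The K562 arrays disagreed on whether the chromosome 5 domain stood out from its surroundings. Over the 6 windows between the 50% borders the means were -1.71 (new sorting), -1.09 (old sorting) and -1.19 (44k). In the 3 windows of the right flank, chr5:15500001-16250000, they were -2.27, -0.36 and -1.74. In the 1 window of the left flank, chr5:12500001-12750000, they were -2.33, -0.32 and -1.29. The window chr5:15000001-15250000, next to the right border, was in neither the domain nor the flank. The domain minus its right flank was thus 0.55 and 0.54 on the new sorting and 44k arrays, where it was the earlier one, and -0.73 on the old sorting array, where it was the later one. Against the left flank it was 0.62, 0.096 and -0.76 (new sorting, 44k and old sorting), so the 44k array hardly set the domain apart on that side. These signs were the same without background correction, with normexp offset 0, after loess and on the deposited ratio, where the right-flank differences were 0.998, 0.78 and -0.73 (new sorting, 44k and old sorting). With 1 array per condition it has no replicate check, and the flanks were defined after seeing the profiles. In U2OS all 4 arrays had the domain earlier than the right flank, by 1.52 and 1.82 (manual) and 2.93 and 2.69 (automated).

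The other genes of the chromosome 5 stretch followed the same division. The interval carried 9 further names, 6 of them with at least 3 probes on the larger design. FAM105A (now OTULINL) averaged -1.27 ± 0.23 in K562 (SD, n = 3) and 0.91 ± 0.29 in U2OS (SD, n = 4). ANKH, which encodes a transmembrane protein that controls extracellular pyrophosphate, averaged -1.105 ± 0.28 and 0.54 ± 0.12 in the same order. FAM105B (now OTULIN, a deubiquitinase) had no probe on the 44k array and read -1.39 and -1.31 on the other K562 arrays against 0.68 ± 0.16 in U2OS (SD, n = 4). The transcript AY050643, between DNAH5 and TRIO, read -1.52 and -1.26 on those K562 arrays and 1.18 ± 0.08 in U2OS (SD, n = 4). The name TAG (LINC01194 in RefSeq), left of the domain, was late in both lines, at -2.32 and -0.18 in K562 and -1.40 ± 0.38 in U2OS (SD, n = 4). The transcript ENST00000511443, at the right border, read -2.07 and -0.77 in K562 and -0.75 ± 0.43 in U2OS (SD, n = 4).

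On chromosome 2 the arrangement was the reverse: K562 copied 1.55 Mb late between neighbouring stretches that were early in both lines, and U2OS copied the stretch as early as its right flank. SH3RF3 encodes a protein with SH3 domains and a RING finger, and SEPT10 (now SEPTIN10) encodes a septin, a GTP-binding protein of the cytoskeleton. EDAR is the receptor for ectodysplasin in the development of hair, teeth and sweat glands, and RANBP2 is a large protein of the nuclear pore. In the core window, chr2:110250001-110500000, the K562 arrays read -2.01, -1.21 and -1.24 (new sorting, old sorting and 44k). The U2OS arrays read 1.09 and 0.89 (manual) and 1.31 and 1.33 (automated). The groups did not overlap, and the difference of -2.64 was rank 2 of 8912. The window stood at percentiles 97.6 to 99.8 of the U2OS arrays and at 3.57 to 19.8 of the K562 arrays. On the deposited ratio the K562 arrays read -2.74, -1.90 and -1.64 and the U2OS arrays 1.63 to 2.11, a difference of -3.98.

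SEPT10 (chr2:110301991-110370826) had 7 probes on the larger design and 2 on the 44k array. It averaged -2.04 on the new sorting, -1.36 on the old sorting and -1.104 on the 44k array, and 1.02 and 0.86 (manual) and 1.25 and 1.26 (automated) in U2OS. Its means were -1.50 ± 0.48 (SD, n = 3) and 1.099 ± 0.19 (SD, n = 4), a difference of -2.60. The groups were fully apart, and every SEPT10 probe had the sign of its line. The 2 probes of the 44k array read -2.21 and -0.0014, so its SEPT10 mean rests on values that disagree.

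SH3RF3 (chr2:109755710-110260776), left of SEPT10, averaged -1.22, -0.72 and -1.09 on the new sorting, old sorting and 44k arrays over 31, 31 and 8 probes. On the U2OS arrays it averaged 0.63 and 0.40 (manual) and 1.24 and 1.07 (automated). Its means of -1.01 ± 0.26 (SD, n = 3) and 0.84 ± 0.38 (SD, n = 4) differed by -1.85, with no overlap. All 31 probes were below 0 on the new sorting array and 30 of 31 on the old sorting array. Within SH3RF3 the new sorting array read -1.06 over the 10 leftmost probes, -1.27 over the middle 10 and -1.33 over the 11 rightmost. The old sorting array read -0.91, -0.41 and -0.81 over the same parts, least late in the middle. SH3RF3 lies on the plus strand in RefSeq, so its 5′ end is the one nearer the left border of the late stretch.

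EDAR and RANBP2 were early in both lines. EDAR (chr2:109511995-109602555) averaged 0.76, 0.16 and 0.58 on the new sorting, old sorting and 44k arrays and 0.77, 0.62, 1.13 and 0.87 in U2OS (manual 1, manual 2, automated 1 and automated 2). The ranges overlapped, and the means of 0.50 ± 0.31 (SD, n = 3) and 0.85 ± 0.22 (SD, n = 4) differed by -0.35. RANBP2, with 2 probes on the larger design and 1 on the 44k array, averaged 1.06, 0.50 and 0.87 in K562 and 0.61, 0.62, 0.56 and 0.99 in U2OS. Its means of 0.81 ± 0.28 (SD, n = 3) and 0.69 ± 0.20 (SD, n = 4) also overlapped. The difference of 0.12 changed sign with every array scaled to the same spread (-0.08) and without the new sorting array (-0.0072). Of 9 EDAR probes, 4 were below 0 on the old sorting array and 2 on the new sorting array, while all were above 0 in U2OS. EDAR, whose gene means overlapped, and SH3RF3, whose gene means did not, are neighbours with no other named gene between their probes.

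**Figure D2:**
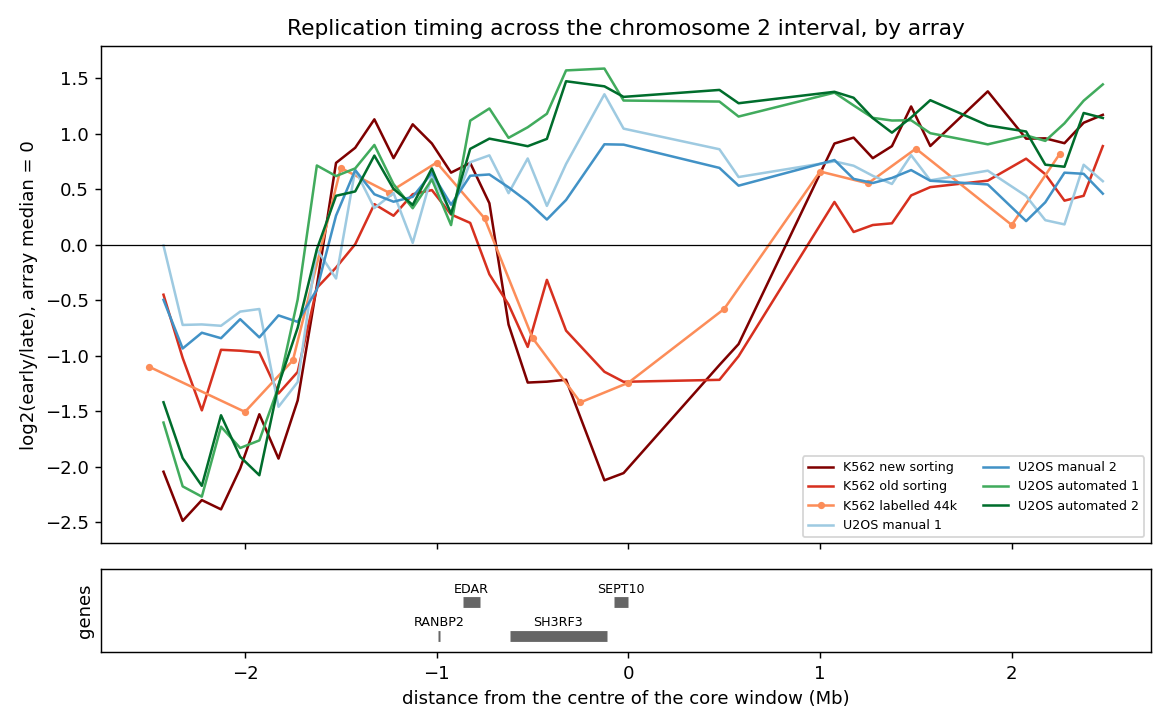
The lines give log2(early/late) on each array against distance from the centre of the chromosome 2 core window in Mb, in 100-kb windows of at least 2 probes (250-kb windows with points for the array labelled 44k), with the extent of the gene probes drawn under them. The 3 K562 lines fall below 0 over SH3RF3 and SEPT10 and return above 0 to the right, while the 4 U2OS lines stay above 0 from RANBP2 to the right end.

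**Figure D3:**
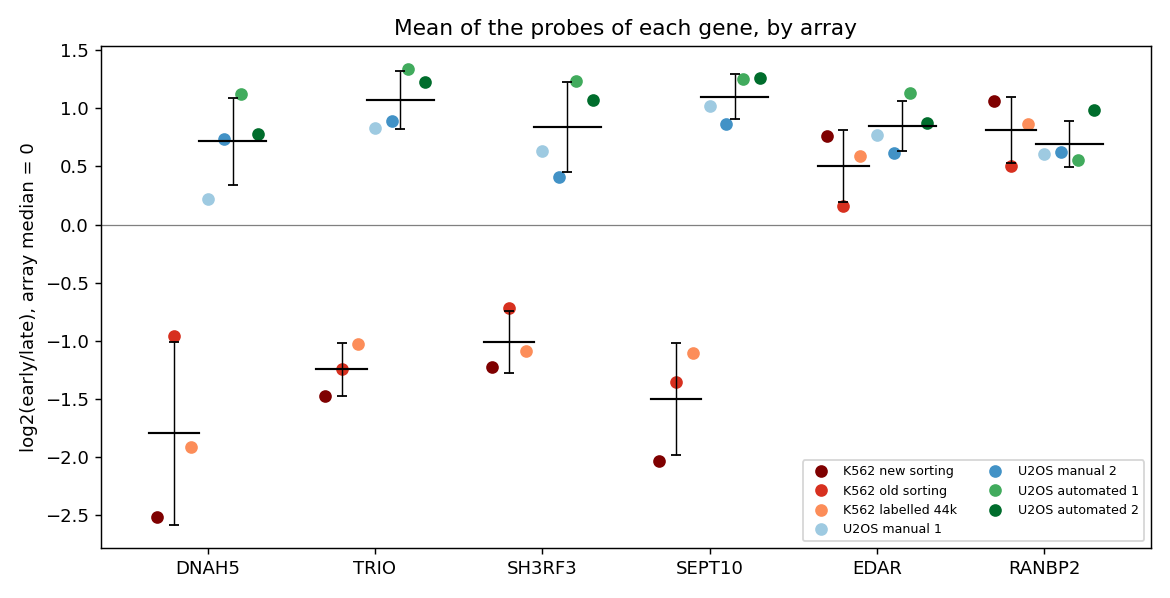
Each point is the mean log2(early/late) of a gene's probes on 1 array, with a bar at the mean of the 3 K562 or the 4 U2OS arrays and its SD. DNAH5, TRIO, SH3RF3 and SEPT10 lie below 0 on every K562 array and above 0 on every U2OS array, and EDAR and RANBP2 overlap between the lines.

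The borders of the late stretch were read from the K562 profiles, in 100-kb windows or, for the 44k array, 250-kb windows. The left crossing of 0 lay at 109.68 Mb (new sorting), 109.59 Mb (old sorting) and 109.68 Mb (44k), a mean of 109.65 ± 0.05 Mb. The right crossing lay at 111.20, 111.31 and 111.11 Mb, a mean of 111.21 ± 0.10 Mb, and the width was 1.55 ± 0.15 Mb (SD, n = 3). All 3 right crossings fall in a stretch without probes, from 110980402 to 111399242, and were interpolated across it. U2OS stayed above 0 to the right for at least 3 Mb on all 4 arrays and crossed 0 only far to the left, at 108.79 ± 0.08 Mb (SD, n = 4). On that far side the K562 mean changed sign too, from -1.23 in the window chr2:108500001-108750000 to 0.44 in its right neighbour. The old sorting array was still below 0 in that neighbour, at -0.13.

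At 50% of the core difference the chromosome 2 domain ran from 109.80 to 111.06 Mb, 1.25 Mb wide. Single K562 arrays against the U2OS mean placed the left border at 109.82, 109.79 and 109.78 Mb, an SD of 0.02 Mb, which is less than a window. They placed the right border at 110.97, 111.19 and 111.03 Mb, an SD of 0.11 Mb. These profiles share the U2OS mean, so their spread covers the K562 side only. The design had no probe from 110427255 to 110833639 (406 kb) and from 110980402 to 111399242 (419 kb). The right border at 50% lies in the second of these stretches too.

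Inside the chromosome 2 interval 4 of 11 windows had groups that did not overlap, all 4 later in K562, against the genome's 30.1% in either direction and 18.1% later. A difference below 0 was found in 8 of 11 windows, against 62.3% of all windows, so neither count sets the interval as a whole apart. The 3 windows that differed by at least 1 were chr2:109750001-110000000 (-1.63), the core (-2.64) and chr2:110750001-111000000 (-1.86). The window at EDAR, chr2:109500001-109750000, differed by -0.57 and was the other one without overlap. It read 0.05 to 0.47 on the K562 arrays and 0.56 to 1.13 on the U2OS arrays. The 3 windows left of it differed by 0.01 to 0.23.

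All K562 arrays read the chromosome 2 domain as later than both of its flanks. The domain minus the right flank was -2.36 (new sorting), -1.32 (old sorting) and -1.58 (44k), and minus the left flank it was -1.66, -0.86 and -1.103. In U2OS the domain and the right flank were near each other, with differences from -0.04 to 0.11. The left flank held the edge of a late region in both lines, and its mean was 0.12 ± 0.22 in K562 (SD, n = 3) and 0.12 ± 0.15 in U2OS (SD, n = 4).

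**Figure D4:**
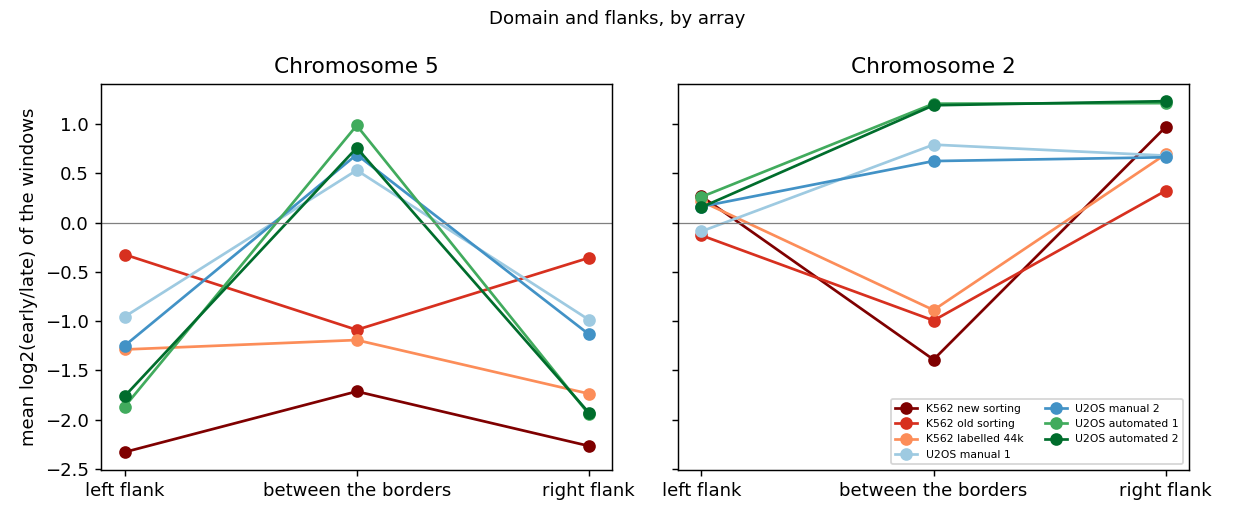
Points give the mean log2(early/late) of the windows left of, inside and right of each domain on each array, joined by array. On chromosome 5 the U2OS arrays peak inside the domain and the old sorting array of K562 alone dips there, and on chromosome 2 the 3 K562 arrays dip.

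**Figure D5:**
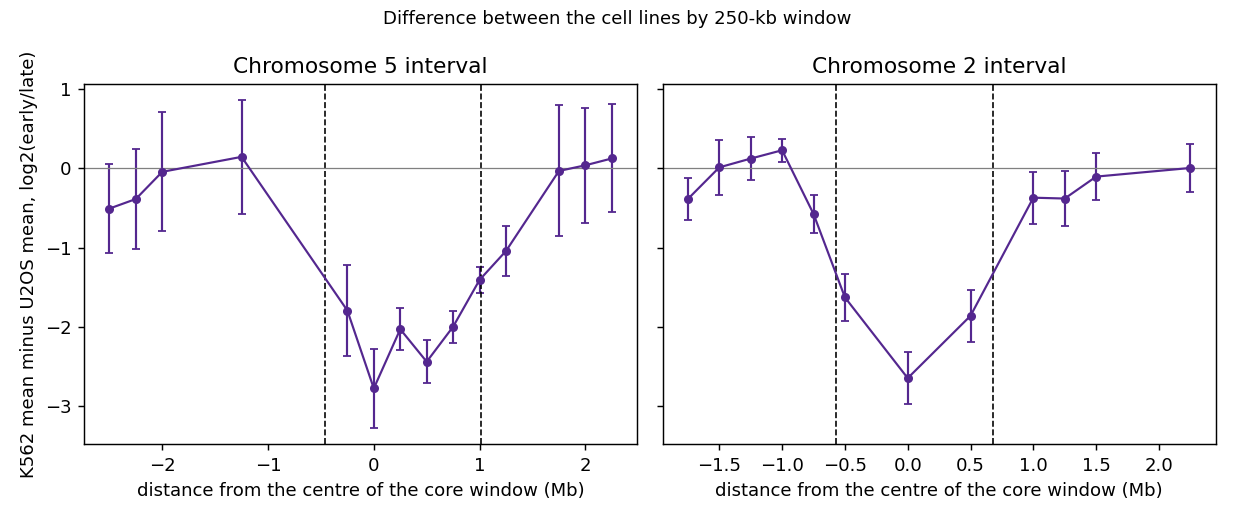
Points give the K562 mean minus the U2OS mean of each 250-kb window against distance from the core window in Mb, with the pooled SD over arrays as bars and dashed lines at 50% of the core difference. The difference reaches -2.77 on chromosome 5 and -2.64 on chromosome 2 and returns to near 0 on both sides of each domain.

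The genes next to SEPT10 and SH3RF3 split at the same borders. The interval carried 20 further names, 10 with at least 3 probes on the larger design. MALL, which encodes a membrane protein of the MAL proteolipid family, averaged -1.28 ± 0.28 in K562 (SD, n = 3) and 1.38 ± 0.26 in U2OS (SD, n = 4). To the right, BUB1, a kinase of the spindle checkpoint, averaged 0.84 ± 0.31 in K562 (SD, n = 3) and 0.94 ± 0.11 in U2OS (SD, n = 4). ACOXL differed by -0.32 and BCL2L11, a gene of the BCL2 family that promotes cell death, by 0.03. To the left, LIMS1 differed by 0.49, CCDC138 by 0.25, SULT1C3 by 0.04 and GCC2 by 0.02. SLC5A7, in the late window at the far left, averaged -1.06 ± 0.24 in K562 (SD, n = 3) and -0.60 ± 0.34 in U2OS (SD, n = 4).

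Total signal was recorded beside the timing ratio, since the amount of DNA at a locus can differ between lines. Between the chromosome 5 borders it was 0.35 to 0.48 log2 in K562 and 0.55 to 0.66 in U2OS, relative to the median probe. Between the chromosome 2 borders it was 0.13 to 0.50 and 0.22 to 0.55. The ranges were apart on chromosome 5 and overlapped on chromosome 2, and their part in the timing ratio was not tested. RANBP2 had a total signal of 4.27 on the automated 2 array against 0.71 to 1.39 on the other U2OS arrays. Few DNAH5 probes were well above background in both channels on the old sorting array (3 of 23) and the 44k array (2 of 6), compared with 17 of 23 on the new sorting array.

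The handling of the U2OS samples is a contrast other than the one that chose the domains. The choice did use the values of these same 4 arrays, so the comparison is not independent of it. Automated against manual was tested with limma over all windows or all genes, with Benjamini-Hochberg adjustment. In the chromosome 5 core the automated arrays were higher than the manual arrays by 0.46 (adjusted p = 0.0157), and in the chromosome 2 core by 0.33 (adjusted p = 0.0168). Of the interval windows measured on the 4 U2OS arrays, 7 of 11 on chromosome 5 (3 earlier and 4 later on automated) and 9 of 12 on chromosome 2 (all 9 earlier) passed, against 72.7% of 11176 windows in either direction and 26.4% earlier on automated. The automated arrays have the wider profiles. With every array scaled to the same spread the differences became -0.22 (adjusted p = 0.52) and -0.49 (adjusted p = 0.047), so their direction is not settled. The chromosome 5 call was also lost without manual 1 or without automated 1 (0.26 and 0.28), and the chromosome 2 call without manual 2, automated 1 or automated 2 (0.23, 0.34 and 0.32).

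Among the genes, SH3RF3 was higher on the automated arrays by 0.63 (SE 0.14, limma adjusted p = 0.00383), TRIO by 0.42 (adjusted p = 0.0196) and DNAH5 by 0.47 (adjusted p = 0.0495). SEPT10 (0.31, limma adjusted p = 0.0658) and EDAR (0.31, limma adjusted p = 0.0875) did not pass, and RANBP2 has too few probes for the test. Over all 11314 genes 53.9% passed in either direction, and 29.3% were earlier on the automated arrays. The SH3RF3 call held with any 1 array left out. DNAH5 read 0.22 without manual 1 (limma adjusted p = 0.361) and 0.30 without automated 1 (limma adjusted p = 0.176). TRIO stayed near its size but did not pass, at 0.39 without manual 1 (limma adjusted p = 0.0811), 0.45 without manual 2 (limma adjusted p = 0.0539) and 0.36 without automated 1 (limma adjusted p = 0.0875). With the replicate number as a block the DNAH5 value was 0.0721. All 3 calls were lost under several other settings. Without dim probes SH3RF3 read 0.30 (limma adjusted p = 0.176), DNAH5 0.37 (limma adjusted p = 0.151) and TRIO 0.10 (limma adjusted p = 0.674). With normexp offset 0 their limma adjusted p was 0.129, 0.38 and 0.451. On the deposited ratio it was 0.264 to 0.699. With the arrays at the same spread it was 0.153 to 0.991, and TRIO read -0.33. The manual arrays share a slide that holds no other array, so slide and handling cannot be told apart.

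Genes outside the domains were set beside the members for likeness of their 7 values, by the root mean square difference, among 4504 candidate genes with at least 3 probes on every array. Nearest to DNAH5 were TNC (0.25), RASAL2 (0.25) and ITGB6 (0.27). TNC, which encodes the matrix protein tenascin C, averaged -1.69 in K562 and 0.75 in U2OS. Nearest to SH3RF3 were GLP2R (0.14), ACTL8 (0.16) and CCBE1 (0.16). GLP2R, the receptor for glucagon-like peptide 2, averaged -1.097 in K562 and 0.87 in U2OS. DNAH5 and SH3RF3 differed from each other by 0.63. The smaller values of the genes above follow from picking the nearest of 4504, so nothing is read from that contrast.

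Relatives of the members elsewhere in the genome were tested between the lines, since they played no part in the choice. Of 38 listed genes 25 could be tested, and 4 passed an adjusted p of 0.05 with a difference of at least 1 (limma over 4514 genes): 3 later and 1 earlier in K562. Over all genes 13.4% passed, 8.48% later and 4.9% earlier, and the median difference of the list was -0.16. Of 11 dynein heavy chains tested, DNAH6, an inner-arm axonemal chain, was later in K562, with a difference of -1.27 (-0.69 ± 0.31, n = 3, against 0.58 ± 0.13, n = 4, limma adjusted p = 0.000814). DYNC2H1, the motor of transport inside cilia, fell by 1.07 (limma adjusted p = 0.0158), while DNAH7 was earlier in K562 by 1.08 (limma adjusted p = 0.00448).

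SH3RF1, the nearest relative of SH3RF3 in the list, was later in K562, with a difference of -1.39 (-0.62 ± 0.22, n = 3, against 0.77 ± 0.17, n = 4, limma adjusted p = 0.000356). SH3RF2 differed by -0.16 (limma adjusted p = 0.732) and KALRN, the paralogue of TRIO, by -0.58 (limma adjusted p = 0.073). The 4 septins tested stayed under the required difference of 1, with SEPT7 at -0.71 (limma adjusted p = 0.0261) and SEPT6 at 0.66 (limma adjusted p = 0.0427). So did the 5 ectodysplasin pathway genes, of which EDARADD, the adaptor of EDAR, was highest at 0.82 (limma adjusted p = 0.0258). Without the new sorting array 2 genes of all lists passed, and the share over all genes in that setting is not given here.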

How the data were processed

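Spot mean and background intensity values of each channel, and the log10 ratio of Cy5 over Cy3, are the authors' scanner output; per the file headers they were written by Agilent Feature Extraction 11.5.1.1 on hg19, while the submitters' processing notes name version 9.1. The array labelled 44k holds 62976 features and the others hold 180880. From the deposited intensity columns the ratio was recomputed as log2(early/late) after normexp background correction with offset 50 (limma 3.58.1, R 4.3.3). The ratio was centred on each array's median, with no loess in the main setting. Probes flagged as outliers (0.01% to 0.34%) and control spots were left out after correction, and repeated spots were averaged. Windows of 250 kb and genes needed at least 3 probes on every array. Tests used lmFit and eBayes with Benjamini-Hochberg adjustment over all windows or genes, at an adjusted p of 0.05. For simulated windows shifted by 1 log2 the test recovered 100% in K562 against U2OS (4.31% of calls false) and 100% in automated against manual (2.91% false), over 8912 windows each. The simulated arrays shared a common mean profile, their window noise came from the manual U2OS arrays only, and calls used the adjusted p alone. These rates therefore do not describe arrays of unequal spread or the rule that also needs a difference of at least 1.

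The members, gene lists and comparisons were chosen with earlier results of these data known. Named genes were the 6 members, other names in the intervals with at least 3 probes, the 3 genes most like DNAH5 and SH3RF3, list genes that passed, and BMP1, DPPA2 and CDKN2A; the list genes named without passing were chosen after their values were seen. A gene of the chromosome 2 interval that this rule names is not reported here. The lists were dynein heavy chains, septins, the ectodysplasin pathway, and relatives of TRIO and SH3RF3. Alternatives were no or another background correction, loess, the deposited log10 ratio, other centring, scaling, window sizes and probe minimums, leaving out dim probes or each array, and the replicate block. The number of arrays limits the precision.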

Additional observations from a re-analysis of the deposited data

Results flagged for a closer look

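In U2OS, RANBP2 read 0.99 on the automated 2 array, apart from the other 3 arrays at 0.56 to 0.62. This array also had a RANBP2 total signal of 4.27. The right crossing of 0 of the chromosome 5 domain lay at 15.14 Mb on the manual 1 array, apart from the other 3 at 15.05 Mb. These are 2 of 11 groups of 4 arrays examined for a single distant value, where chance alone marks about 1 in 20.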

How the results depend on the processing

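Against U2OS, K562 was later at both core windows under every alternative that gave a value. The chromosome 5 difference was -2.09 without background correction, -3.90 with normexp offset 0, -4.09 on the deposited ratio, -4.19 on it scaled to the same spread and -4.13 on it without the 44k array. The chromosome 2 difference was -1.98, -3.87, -3.98, -4.01 and -4.21 under the same settings. The chromosome 5 width was 1.75 Mb in 500-kb windows, 2.32 Mb with at least 5 probes and 2.24 Mb at 25% height, where the chromosome 2 width was 1.63 Mb. Windows that passed between the lines, 1165 in the main setting (67.4% later in K562), numbered 601 without background correction, 1995 with offset 0, 2078 on the deposited ratio (53.3% later), 2252 on it scaled (53.2%), 2037 on it without the 44k array (57.0%), 13 without dim probes (84.6%), 592 in 500-kb windows, 2357 in 100-kb windows on 6 arrays and 750 with at least 5 probes. With mean centring 55.8% were later. Related genes that passed, 4 in the main setting, numbered 1 without background correction, 7 on the deposited ratio, 8 on it scaled, 0 without dim probes, and 2 to 4 with 1 array left out. The numbers tested, and the shares over all windows or all genes, are not given for these settings. Nothing is therefore read from the changes in these counts. RANBP2 (0.12) reversed when scaled (-0.080), rose to 0.57 on the deposited ratio, 0.73 on it scaled and 0.39 on it without the 44k array, and ranged from -0.0072 to 0.27 with 1 array left out.

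Within U2OS, automated minus manual at the chromosome 5 core was 0.34 with offset 0, 0.14 on the deposited ratio, 0.069 on it scaled, 0.24 without dim probes and -0.22 scaled, none past the threshold, and 0.26 to 0.65 with 1 array left out. At the chromosome 2 core it was 0.24 without background correction, -0.13 with offset 0, -0.44 on the deposited ratio, -0.52 on it scaled, -0.49 scaled and 0.23 to 0.43 with 1 array left out. TRIO reversed when scaled (-0.33). With the replicate block the adjusted p was 0.00323 at the chromosome 5 core, 0.0115 at the chromosome 2 core and 0.0721 for DNAH5, the only one of these calls it ended. Over windows, manual 1 minus manual 2 was not correlated with automated 1 minus automated 2 (r = -0.0142). This check showed no pairing by number but cannot exclude one, and the labels do not state any. The 2 settings that start from the deposited ratio and also scale it or drop the 44k array were added after seeing the data. A random block for slide could not be fitted, because only the 2 manual arrays share a slide. Without dim probes the 44k array left no core window for K562 against U2OS. The causes of these changes were not tested.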
